A study of Mus musculus with 6 samples.

Results

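The cardiac transcription factors described here are 10 genes, Gata4, Gata6, Nkx2-5, Tbx5, Tbx20, Mef2a, Mef2c, Hand2, Meis1 and Meis2, out of 39171 genes in the deposited table. They were chosen by name as factors of the cardiac lineage and Meis factors, and all 10 were found, each as a single row. The RNA with poly(A) tails was sequenced from ventricles of wild-type mice of the outbred CD-1 stock, taken 2 days (P2, 3 libraries) and 1 day (P1, 3 libraries) after birth. No group carried an allele or was given an agent, so age is the only labelled difference. The protocol gives 3 hearts per age, and the labels name neither sex nor litter, so each p-value reflects only the spread among these libraries, part of which may be technical. The values are FPKM, fragments scaled to transcript length and library size, so levels of different genes can be set side by side.

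Gata, Nkx2, T-box, Mef2 and Hand proteins bind DNA together at enhancers of heart muscle genes, and loss of most of them in mice or humans malforms the heart. Meis1 and Meis2 are homeodomain proteins that bind DNA beside Pbx and Hox partners. In mice, Meis1 is known as a brake on cardiomyocyte division in the first week after birth, and both ages studied here fall in that week. Regeneration was not measured here.

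All 10 factors averaged above 1 FPKM at both ages, and none of them passed the test for a difference between the ages. Of the 10 genes, 0 had a Benjamini-Hochberg adjusted p under 0.05 in limma, a linear model with moderated variances, which called 0.161% of all 13624 genes tested (10 higher and 12 lower in P2). At an unadjusted limma p under 0.05, 2 factors were higher in P2 (Mef2c and Tbx20), where 10.7% of all genes were, and 1 was lower (Tbx5), where 7.89% were. For 3 factors (Mef2c, Tbx20 and Hand2) the lowest P2 library exceeded the highest P1 library, as it did for 14.4% of all genes. For 1 factor (Tbx5) the highest P2 library was below the lowest P1 library, as for 10.6% of all genes. The change of Mef2c was above that of 91.7% of all tested genes, and that of Tbx5 above 6.38%. The median log2 change of the 10 factors was 0.05, and that of all tested genes was 0.01. Log2 changes are P2 minus P1 of log2(FPKM + 1), and the added 1 shrinks the changes of weakly expressed genes.

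**Figure D1:**
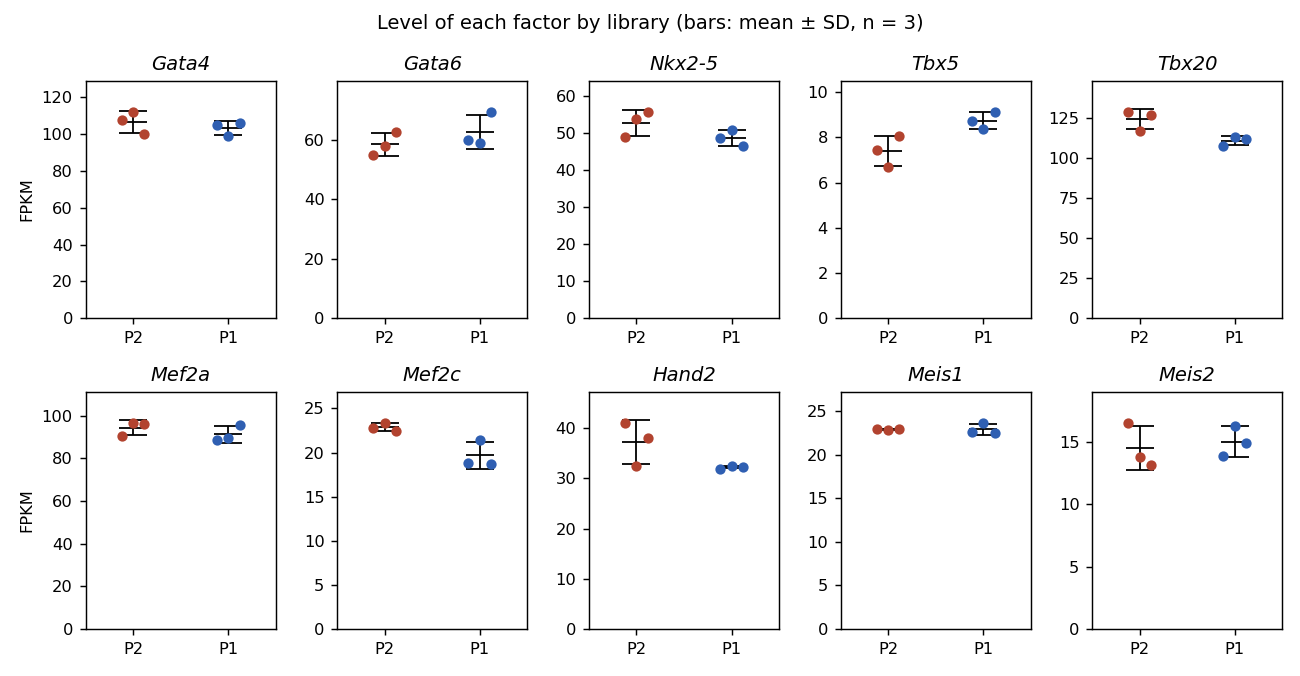
FPKM of each factor (vertical axes, from 0) in the 3 P2 libraries, left in each panel, and the 3 P1 libraries, right, with mean and SD as black bars. The ages are separated for Tbx5, with P2 between 6.71 and 8.05 FPKM, all below P1, and for Tbx20, Mef2c and Hand2, with P2 above P1; the other 6 genes overlap.

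The order of the levels was the same at both ages. Tbx20 was the highest of the 10 genes and Tbx5 the lowest in every library, and the level of the highest was between 15.7 and 17.5 times that of the lowest in P2 libraries and between 12.3 and 13.5 times in P1 libraries. From the top, the means ran through Tbx20, Gata4, Mef2a, Gata6, Nkx2-5, Hand2, Meis1, Mef2c, Meis2 and Tbx5. In P2, the ranges of Gata6 and Nkx2-5 overlapped, as did those of Meis1 and Mef2c, so these neighbours did not differ beyond their spread. In P1, the ranges of neighbours lay apart throughout. Among all tested genes, Tbx20 stood in the top 4.82% by mean level, Gata4 in the top 5.62%, Mef2a in the top 6.46%, Meis1 in the top 26.8% and Tbx5 in the top 58.9%.

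Of the GATA zinc finger factors, Gata4, which activates many genes of heart muscle, had 108, 112 and 99.8 FPKM in P2 replicates 1 to 3, against 105, 99.1 and 106 FPKM in P1 replicates 1 to 3. The ages overlapped, with a log2 change of 0.04 ± 0.05 (SE) and a 95% interval from -0.09 to 0.18 (limma, adjusted p = 0.688). Gata6, its close relative with a role in the outflow tract, had 55.1, 57.9 and 62.6 FPKM in P2, against 59.9, 59.1 and 69.5 FPKM in P1. The ages of Gata6 overlapped, and its log2 change was -0.10 ± 0.08, with an interval from -0.29 to 0.09. Nkx2-5, the homeodomain factor of early heart muscle, had 48.95, 53.9 and 55.8 FPKM in P2, against 48.7, 51.0 and 46.6 FPKM in P1. Its ages overlapped through the lowest P2 library, and its log2 change was 0.11 ± 0.06, with an interval from -0.04 to 0.26.

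Of the T-box factors, Tbx20, needed in adult mouse cardiomyocytes and in the growing chambers, had 129, 117 and 127 FPKM in P2, against 108, 113 and 112 FPKM in P1. All P2 libraries lay above all P1 libraries, and the mean was 124 ± 6.16 FPKM in P2 and 111 ± 2.99 FPKM in P1 (SD, n = 3 each), a log2 change of 0.16 ± 0.05 (limma, adjusted p = 0.181). Tbx5, the factor mutated in human Holt-Oram syndrome and known for its roles in the atria, the septum and the conduction system, had 7.44, 6.71 and 8.05 FPKM in P2, against 8.74, 8.37 and 9.12 FPKM in P1. All P2 libraries lay below all P1 libraries, and the mean was 7.40 ± 0.671 FPKM in P2 and 8.74 ± 0.379 FPKM in P1, a difference of -15.4% and a log2 change of -0.22 ± 0.07 (limma, adjusted p = 0.200).

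Of the MEF2 factors, which with Gata and Nkx2 proteins switch on contractile genes, Mef2a had 90.2, 96.7 and 96.0 FPKM in P2, against 88.4, 89.6 and 95.6 FPKM in P1. The ages overlapped, with a log2 change of 0.05 ± 0.05 and an interval from -0.07 to 0.16. Mef2c, needed for the looping heart tube and also active in vessels, had 22.8, 23.4 and 22.4 FPKM in P2, against 18.9, 21.4 and 18.7 FPKM in P1. All P2 libraries lay above the highest P1 library, replicate 2. The Mef2c mean was 22.9 ± 0.483 FPKM in P2 and 19.7 ± 1.53 FPKM in P1, a difference of 16.3% and a log2 change of 0.21 ± 0.06, the smallest p of the 10 factors (limma, unadjusted p = 0.0114, adjusted p = 0.172).

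Hand2, a basic helix-loop-helix factor needed in mice for the right ventricle, had 41.1, 32.5 and 38.1 FPKM in P2, against 32.0, 32.4 and 32.2 FPKM in P1. The P1 libraries had a coefficient of variation of 0.664%, and P2 replicate 2 was just above them, while the other P2 libraries were higher still. The log2 change of Hand2 was 0.20 ± 0.08 (limma, adjusted p = 0.285), and it was 0.29 without P2 replicate 2 (adjusted p = 0.187) and 0.12 without P2 replicate 1 (adjusted p = 0.457).

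Meis1 had 22.95, 22.8 and 22.96 FPKM in P2, against 22.55, 23.7 and 22.5 FPKM in P1. The P2 values lay inside the P1 range. The log2 change was 0.0010 ± 0.04, and the 95% interval ran from -0.09 to 0.09, so a change as large as the -0.22 of Tbx5 or the 0.21 of Mef2c lay outside it with the values as deposited. Meis1 had the smallest residual SD of the 10 factors, 0.029 on the log2 scale, against 0.079 for their median and 0.083 for the median of all tested genes. Meis2, which shares most of its homeodomain with Meis1 and acts in neural crest of the outflow tract, had 16.6, 13.8 and 13.2 FPKM in P2, against 13.9, 16.3 and 14.9 FPKM in P1. Meis2 had the largest residual SD, 0.138, and its ages overlapped (log2 change -0.05 ± 0.10, interval from -0.29 to 0.18).

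Promoters are shown for the 3 factors whose P2 values all lay above P1 and for Meis1, whose ages overlapped. RefSeq promoter sequences (GRCm38.p6) were matched for 7 of the 10 genes, with no entry for Gata4, Gata6 and Tbx5. The 250 bases before the transcription start are given 5′ to 3′ on the strand of the gene, at chr9:24774304-24774553 (minus strand) for Tbx20, chr13:83503784-83504033 (plus strand, the most upstream of 3 listed starts) for Mef2c, chr8:57320733-57320982 (plus strand) for Hand2 and chr11:19018970-19019219 (minus strand) for Meis1. Capitals mark matches, on either strand, to 6 sets of letters. AGATAA stands for sites of the GATA family, and AGGTGT stands for sites of the T-box family. TNAAGTG stands for the element bound by the homeodomain of Nkx2-5, and TGACAG stands for sites of Meis proteins. TANNNNTA is a loose form of the core of the element bound by Mef2 proteins, with any base at N, so a match need not be a Mef2 core. TATAAA is the TATA box.
Tbx20: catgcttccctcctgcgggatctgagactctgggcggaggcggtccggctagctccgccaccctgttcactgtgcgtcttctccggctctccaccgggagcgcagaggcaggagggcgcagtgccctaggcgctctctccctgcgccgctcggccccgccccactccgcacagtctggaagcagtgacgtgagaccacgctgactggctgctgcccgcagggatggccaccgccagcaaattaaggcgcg
Mef2c: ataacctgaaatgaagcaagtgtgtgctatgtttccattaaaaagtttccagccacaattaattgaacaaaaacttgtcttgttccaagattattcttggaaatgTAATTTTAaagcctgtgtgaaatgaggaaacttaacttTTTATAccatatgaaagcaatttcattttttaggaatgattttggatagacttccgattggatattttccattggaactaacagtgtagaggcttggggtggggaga
Hand2: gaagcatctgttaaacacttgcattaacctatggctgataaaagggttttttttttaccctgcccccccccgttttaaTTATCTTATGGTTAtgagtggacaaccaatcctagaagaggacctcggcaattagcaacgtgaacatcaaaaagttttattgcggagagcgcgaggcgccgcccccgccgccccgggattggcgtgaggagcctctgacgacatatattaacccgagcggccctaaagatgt
Meis1: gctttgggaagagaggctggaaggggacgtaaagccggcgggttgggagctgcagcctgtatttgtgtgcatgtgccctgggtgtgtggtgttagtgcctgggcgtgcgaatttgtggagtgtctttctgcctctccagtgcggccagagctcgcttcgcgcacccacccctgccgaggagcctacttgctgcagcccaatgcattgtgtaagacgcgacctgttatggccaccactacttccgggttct

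In these windows, Tbx20 and Meis1 held none of the 6 sets of letters. Hand2 held a GATA match that began at position -172 from the start, on the minus strand. It was directly followed by a match to the loose Mef2 letters at -166, which read TATGGTTA. Mef2c held a match to the loose Mef2 letters at -145, which read TAATTTTA. It also held a TATA match on the minus strand at -107, and no capitals in the 4 sequences overlap. Of 32851 RefSeq promoters of the same length, 9.99% held the GATA letters, 34.4% the loose Mef2 letters and 12.4% the TATA box. The T-box letters were in 11.8%, the Nkx2-5 letters in 10.1% and the Meis letters in 15.9%. A match describes the letters only, and its absence says nothing about binding of a factor.

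**Figure D2:**
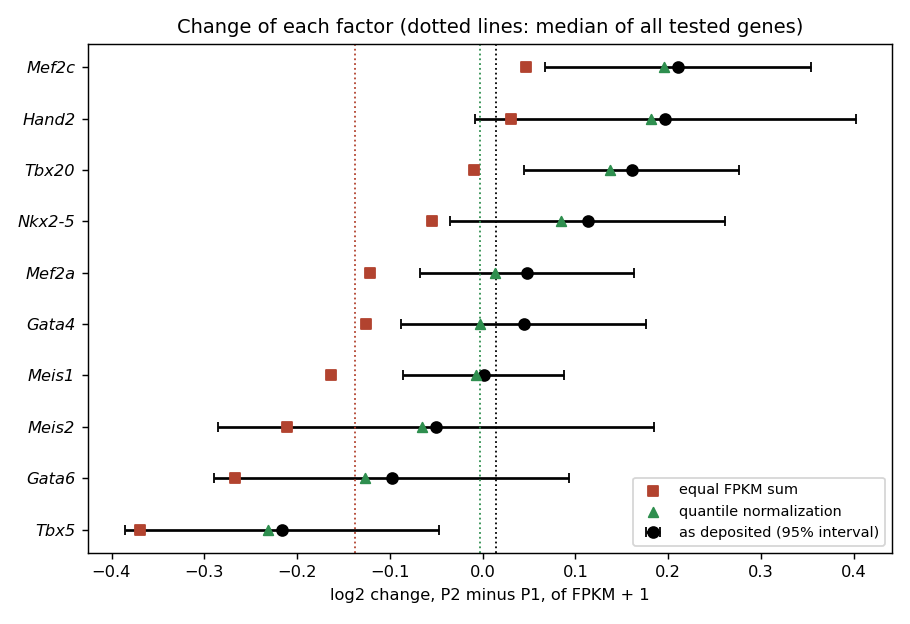
Log2 change of each factor, P2 minus P1, of FPKM + 1, as deposited with its 95% interval (black), after scaling to equal FPKM sums (red squares) and after quantile normalization (green triangles), with the median of all tested genes under each as a dotted line. Mef2c is at 0.21 and Tbx5 at -0.22 as deposited, and the order of the genes is the same under each scaling.

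The sign of some of these small changes depended on the scaling between libraries, while Gata6, Tbx5, Mef2c, Hand2 and Meis2 kept theirs under each scaling. Median ratio scaling put the median change over all genes at 0.003 and quantile normalization at -0.003, with 0 of the 10 factors called under either. FPKM sums were higher in P2 (807632 to 858436) than in P1 (716968 to 754510), and scaling to equal sums put the median change over all genes at -0.14 and the calls of limma at 39 higher and 2394 lower, against 10 and 12 as deposited. With equal sums the changes were -0.13 for Gata4, -0.05 for Nkx2-5, -0.0096 for Tbx20, -0.12 for Mef2a and -0.16 for Meis1, all of opposite sign to those as deposited, and 0.05 for Mef2c and 0.03 for Hand2. Tbx5 (-0.37, limma adjusted p = 0.0237) and Meis1 (limma adjusted p = 0.0453) then passed the test. Both were lower in P2, and 2394 of all 13624 tested genes were called lower with equal sums. Relative to the median of all genes, the changes were close under both scalings. Tbx5 stood at -0.23 with equal sums and -0.23 as deposited, Meis1 at -0.03 and -0.01, Mef2c at 0.18 and 0.20, Hand2 at 0.17 and 0.18, and Tbx20 at 0.13 and 0.15.

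A ratio of related factors within a library is not altered by a scale factor. For Tbx5 over Tbx20, the log2 ratio was -4.11, -4.13 and -3.98 in P2, against -3.62, -3.76 and -3.62 in P1. All P2 ratios lay below all P1 ratios, and the means differed by -0.41, with an SD of 0.084 in P2 and 0.080 in P1. The 2-sided exact permutation test gave p = 0.10, the smallest that 3 against 3 allows, and 0.40 after Benjamini-Hochberg adjustment over the 4 pairs compared. The ratio is built from genes that were each separated between the ages as deposited, so it is no independent evidence. The ratio of Mef2a over Mef2c was between 3.96 and 4.28 in P2 and between 4.18 and 5.11 in P1 (difference of log2 means -0.17, exact p = 0.20). Gata4 over Gata6 was between 1.59 and 1.96 in P2 and between 1.52 and 1.75 in P1 (0.14, exact p = 0.30). Meis1 over Meis2 was between 1.39 and 1.74 in P2 and between 1.45 and 1.62 in P1 (0.06, exact p = 0.70). These 3 ratios overlapped between the ages.

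**Figure D3:**
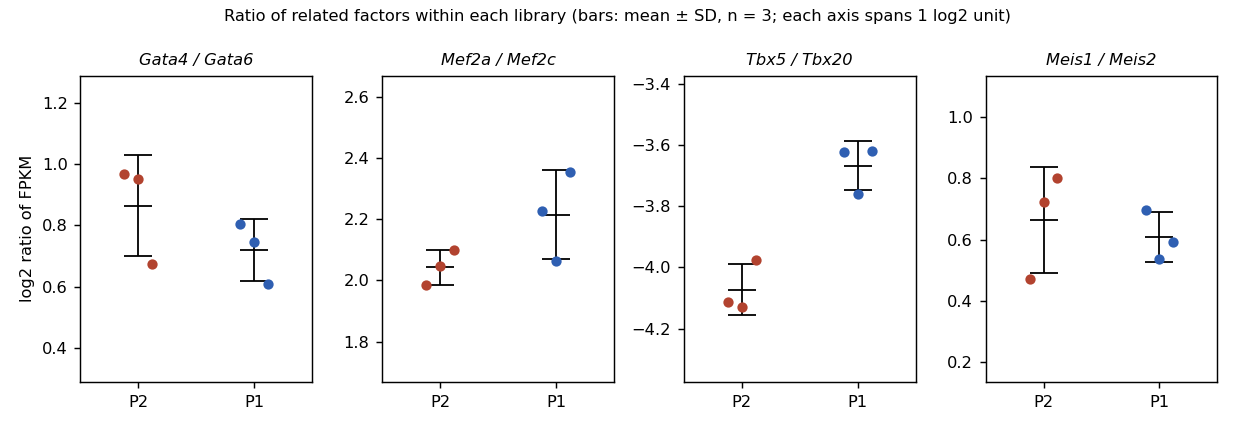
Log2 ratio of FPKM of 4 pairs of related factors within each library (vertical axes, each spanning 1 log2 unit), P2 left and P1 right, with mean and SD (n = 3) as black bars. The ratio of Tbx5 over Tbx20 is between -4.13 and -3.98 in P2 and between -3.76 and -3.62 in P1; the other ratios overlap.

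Atrial marker genes were mostly lower in P2, as Tbx5 was. The labels describe ventricles only, and whether transcripts of these genes came from atrial or ventricular cells was not tested. The summed level of 7 atrial markers was 556, 578 and 789 FPKM in P2, against 1516, 964 and 1002 FPKM in P1. Of the 7, 6 had lower means of the log2 values in P2, as did 6166 of all 13624 tested genes, and none was at 0. Bmp10, a growth factor gene of the atrial list, had 1.19, 1.23 and 1.42 FPKM in P2, against 3.2, 3.12 and 3.65 FPKM in P1. It was lower in P2 (limma, adjusted p = 0.0306). However, its limma adjusted p was between 0.064 and 0.144 with any 1 of the 6 libraries left out, and 0.191 with a replicate block. Myl7, the atrial myosin light chain, had 199, 103 and 369 FPKM in P2, against 471, 314 and 411 FPKM in P1. Sln, the atrial regulator of the calcium pump, had 17.6, 5.76 and 40.5 FPKM in P2, against 48.5, 27.6 and 37.4 FPKM in P1. Within P2, replicate 2 was the lowest and replicate 3 the highest for Tbx5, Myl7, Sln and Myl4 (146, 119 and 199.7 FPKM in P2, against 554, 316 and 251 FPKM in P1), and for Stard10, but not for Bmp10, Nppa and Kcna5. Within P1, replicate 2 was the lowest for Tbx5, Myl7, Sln, Stard10 and Bmp10, but not for Myl4, Nppa and Kcna5. Tbx5 and Bmp10 were highest in P1 replicate 3, where Myl4 was lowest, and Myl7 and Sln were highest in P1 replicate 1. The part of atrial tissue, or of a change within ventricular cells, in the Tbx5 difference was not tested.

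**Figure D4:**
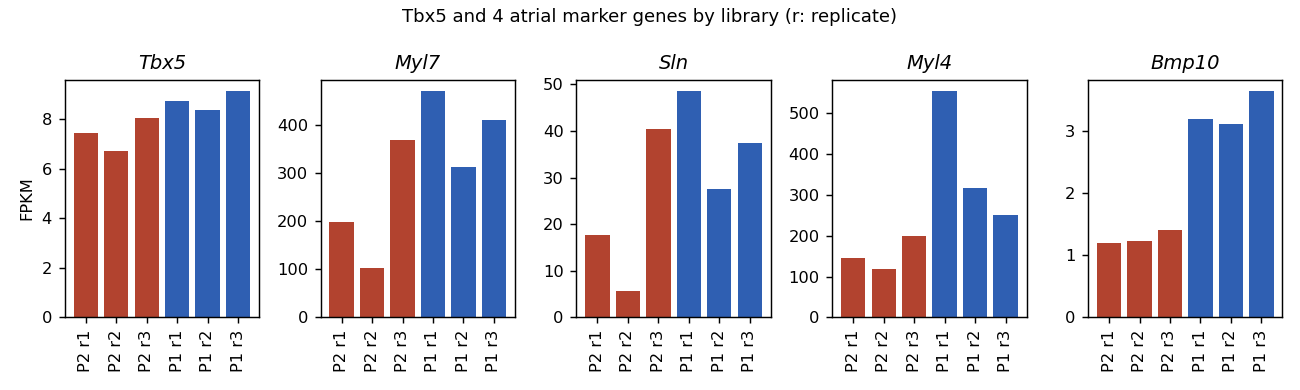
FPKM of Tbx5 and of 4 atrial marker genes (vertical axes, from 0) in each library, with P2 replicates 1 to 3 in red left of P1 replicates 1 to 3 in blue. Tbx5 is lowest in P2 replicate 2 (6.71 FPKM), where Myl7 (103 FPKM), Sln (5.76 FPKM) and Myl4 (119 FPKM) are lowest too. Bmp10 is lowest in P2 replicate 1 (1.19 FPKM). Of the listed atrial markers not drawn, Stard10 is also lowest in P2 replicate 2. Nppa and Kcna5 are there at their highest among the P2 libraries.

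Of 36 tested markers in 7 lists of other cell types, 0 were called by limma, which called 0.161% of all genes. At an unadjusted limma p under 0.05 there were 13, where 10.7% of all genes were higher and 7.89% lower in P2. Of the 13, 4 were endothelial and higher, 3 erythroid and lower, and 3 epicardial. The fibroblast, smooth muscle and pericyte, and neural crest and Schwann lists had 1 each. In bulk tissue, fewer cells of a type and less RNA per cell cannot be told apart. The summed level of 7 endothelial markers was between 431 and 441 FPKM in P2 and between 379 and 426 FPKM in P1. Of the 7, 6 were higher in P2, none was called and none was at 0. Over all 13624 tested genes, 7458 were higher in P2. Of 10 cardiomyocyte markers, 7 of 8 tested were higher in P2 (6 of 7 without Tnnt2, with 0 called), and their sum was between 12410 and 13080 FPKM in P2 and between 9292 and 9750 FPKM in P1. Myh6 and Actc1 were listed at 0 in all libraries and Tnnt2 in all P1 libraries, although heart muscle makes these transcripts in abundance, so a 0 here need not mean absence. Without Tnnt2, the cardiomyocyte sum was between 9733 and 9908 FPKM in P2 and between 9292 and 9750 FPKM in P1. The sum of 7 fibroblast markers was between 1411 and 1695 FPKM in P2 and between 1342 and 1524 FPKM in P1. Epicardial markers summed to between 51.6 and 59.6 FPKM in P2 and between 57.5 and 61.96 FPKM in P1. Smooth muscle and pericyte markers (448 to 469 FPKM in P2, 424 to 585 FPKM in P1) and leukocyte markers (10.98 to 12.7 FPKM in P2, 11.7 to 13.6 FPKM in P1) overlapped between the ages. Erythroid markers summed to between 754 and 952 FPKM in P2 and between 961 and 1358 FPKM in P1, and neural crest and Schwann markers to between 5.43 and 6.47 FPKM in P2 and between 6.67 and 7.39 FPKM in P1. The part of any of these cells in the values of the 10 factors was not tested.

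Related factors, partners, cofactors and targets were read from the same fit, in which limma called 0.161% of all genes. At an unadjusted limma p under 0.05, 10.7% of all genes were higher and 7.89% lower in P2. The counts of each list below are to be read beside these shares. Of 25 other cardiac factors, 19 had a mean of at least 1 FPKM, and 0 were called by limma (1 at an unadjusted p under 0.05), with 8 higher and 11 lower in P2 and a median log2 change of -0.04. Mef2d, another Mef2 family gene, had 62.0, 61.0 and 57.1 FPKM in P2, against 67.3, 63.3 and 64.4 FPKM in P1 (log2 change -0.11 ± 0.05, adjusted p = 0.265). Irx4, a factor of ventricular identity, had 36.8, 33.4 and 36.7 FPKM in P2, against 38.99, 41.1 and 37.0 FPKM in P1 (-0.13 ± 0.06, adjusted p = 0.299). For both genes all P2 libraries lay below all P1 libraries, as for 2 of the 19 tested genes of the list and 10.6% of all genes. Isl1, a factor of heart progenitors and of the sinus node, was at a mean of 0.0544 FPKM in P2 and 0.120 FPKM in P1, and Nkx2-6 was listed at 0 in all libraries.

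Of 10 TALE and HOX genes, which are relatives or partners of Meis factors, 8 were tested and 0 were called (1 at an unadjusted limma p under 0.05), 4 with a higher and 4 with a lower value in P2 (median log2 change -0.0007). Pbx2, a homeodomain partner of Meis proteins, had 19.2, 19.5 and 23.3 FPKM in P2, against 22.4, 24.5 and 25.0 FPKM in P1 (log2 change -0.21 ± 0.08, limma adjusted p = 0.265). Meis3, the remaining Meis gene, averaged 4.35 ± 0.602 FPKM in P2 and 3.57 ± 0.268 FPKM in P1 (0.22 ± 0.10, limma adjusted p = 0.287). Hoxb13, which acts with Meis1 in mouse cardiomyocytes, was listed at 0 in all libraries. Of the 11 cofactors, 11 were tested and 0 were called (2 at an unadjusted limma p under 0.05), with a median of -0.04. The acetyltransferase gene Ep300 had 9.92, 10.2 and 10.3 FPKM in P2, against 10.7, 11.2 and 11.2 FPKM in P1 (log2 change -0.12 ± 0.04, adjusted p = 0.209). Smyd1, a muscle methyltransferase gene activated by Mef2c in mice, had 201, 195 and 185 FPKM in P2, against 183, 176 and 176 FPKM in P1 (0.12 ± 0.04, adjusted p = 0.229).

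The cyclin-dependent kinase inhibitor genes described as targets of Meis1 in mouse heart were measured at very different levels. Cdkn1a, which encodes p21, had 21.4, 26.4 and 25.9 FPKM in P2, against 18.8, 19.4 and 21.0 FPKM in P1. All P2 libraries lay above all P1 libraries, and the log2 change was 0.30 ± 0.09 (limma, adjusted p = 0.182). Cdkn2a had 0, 0.041 and 0.079 FPKM in P2, against 0, 0.127 and 0.109 FPKM in P1. Cdkn2b had 0.266, 0.088 and 0.129 FPKM in P2, against 0.181, 0.2005 and 0.400 FPKM in P1. Neither reached a mean of 1 FPKM, and neither was tested.

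Among 21 targets of cardiac factors, 19 were tested, 10 with a higher and 9 with a lower value in P2, with a median log2 change of 0.01 (-0.0040 without Tnnt2). The only call was Tnnt2, cardiac troponin T, with 3250, 2681 and 3172 FPKM in P2, and listed at 0 in every P1 library, so no fold is given. The next 2 genes were picked after their values had been seen. Pln, the inhibitor of the cardiac calcium pump, averaged 1992 ± 39.5 FPKM in P2 and 1690.0 ± 71.6 FPKM in P1 (log2 change 0.24 ± 0.05, limma adjusted p = 0.127). Mb, myoglobin, averaged 2743 ± 107 FPKM in P2 and 2390.0 ± 108 FPKM in P1 (0.20 ± 0.06, limma adjusted p = 0.174). The targets were chosen from general knowledge of these factors, and no binding was measured here.

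**Figure D5:**
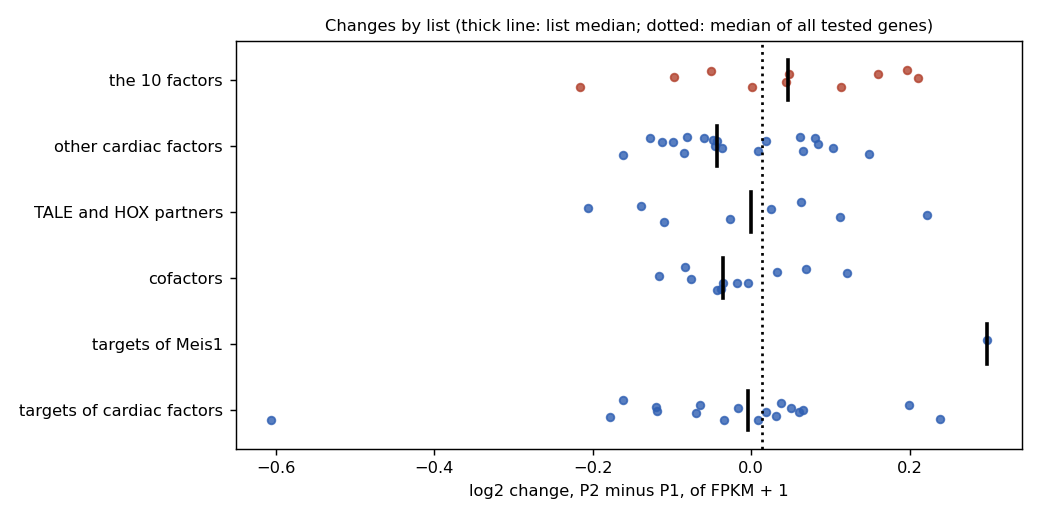
Log2 change, P2 minus P1, of FPKM + 1 (horizontal axis) for each tested gene of the 10 factors and of the 5 related lists, without Tnnt2, with the median of each list (thick line) and of all tested genes (dotted line, 0.01). The 10 factors lie between -0.22 and 0.21 around a median of 0.05, and the single tested target of Meis1, Cdkn1a, lies at 0.30.

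The genes whose centred log2 values were most like those of Meis1 over the 6 libraries were Ankle2, Sco2 and Epb41l5, at root mean square distances of 0.0133, 0.0135 and 0.0137, where the median over 12010 genes with established symbols was 0.087. Their percent differences between P2 and P1 means were 0.931, 1.08 and -0.450, beside 0.046 for Meis1, and all overlapped between the ages. They were chosen for this closeness, so it is a description. Closest to Mef2c, the factor with the smallest p, were Wdr47, Slf1 and Chml, at distances of 0.0206, 0.0222 and 0.0225, where the median over the same genes was 0.140. Wdr47 had 5.82, 6.002 and 5.54 FPKM in P2, against 4.67, 5.203 and 4.53 FPKM in P1, with replicate 2 the highest of the P1 libraries as for Mef2c.

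In the GENCODE M21 annotation of GRCm38, 4 of the 10 factors overlap other genes. Hand2 (chromosome 8, 57320983 to 57324633) lies across from Hand2os1 on the opposite strand. Gata6 overlaps 1010001N08Rik (mean 16.2 FPKM), and Mef2a overlaps Lysmd4 (mean 7.30 FPKM), each on the opposite strand. Mef2a also overlaps Gm44667 and Gm44668 on its own strand. Like Hand2os1, these genes have no row among the deposited values. Meis1 (chromosome 11, 18879817 to 19018985) overlaps 5 genes with provisional symbols, of which the 2 in the table, both antisense, had means of 0.006 and 0.376 FPKM. The sources used here do not say whether fragments were assigned by strand, so fragments of these overlaps cannot be told apart. Tbx5 (chromosome 5, 119832668 to 119885219), Tbx20 (chromosome 9, 24718138 to 24774303) and Mef2c (chromosome 13, 83504034 to 83667080) overlap no annotated gene.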

How the data were processed

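The deposited FPKM table has 1 column for each of 6 libraries, and all were used without rescaling. Per the submitters' processing notes, FastQC, TopHat2, Cuffdiff 2.2.1 and R 3.2 were used. The sources used here do not give the build, annotation release, filters, strand setting or scaling. Groups and replicate numbers came from the sample titles. Symbols came from GENCODE M21, which matched 37605 of 39171 identifiers.

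FPKM do not hold counts, so the absolute depth behind each value is unknown. Among genes under 0.05 FPKM, the most frequent ratio to P1 replicate 1 was between 0.917 and 1.13 in the other libraries. Each library had between 13355 and 13429 genes at 1 FPKM or more.

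The main test was limma 3.58.1 (R 4.3.3) with a variance trend on log2(FPKM + 1), with age as the only term, over genes averaging 1 FPKM or more, two-sided, with Benjamini-Hochberg adjustment over all of them. Ratios of related genes were compared with exact permutation tests. The members and lists were chosen with earlier results of these data known. The rule named every factor, called genes of each list or else up to 2 with the smallest p, all listed targets of Meis1, and the 3 genes nearest to Meis1 and to the factor with the smallest p. The limma fit was tested on simulated data, with planted changes larger than those of the factors. Alternatives were another pseudocount, filters, scalings, a replicate block, leaving out genes listed at 0, and leaving out each library. Tables used Python 3.11.15 with pandas 2.3.3, numpy 2.4.6 and scipy 1.17.1, and plots matplotlib 3.10.9.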

Additional observations from a re-analysis of the deposited data

How the results depend on the processing

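Of the 10 factors, 0 were called as deposited and under every alternative except equal FPKM sums. With equal sums 2 of the 10 were called, beside 2433 of all 13624 tested genes. The number of all genes called was 22 as deposited, 40 with a pseudocount of 0.1, 41 with a filter of 5 FPKM, 2433 with equal sums, 111 without genes listed at 0 in any library, 5 with a replicate block and between 5 and 25 with 1 library left out in turn. It was 5 without P1 replicate 1 or P1 replicate 2, 11 without P2 replicate 1 and 12 without P2 replicate 2. Of the 58 tested genes of the related lists, 1 was called as deposited and 17 with equal sums. Without genes listed at 0, which leaves out Tnnt2, 0 were called.

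Gata6, Tbx5, Mef2c and Hand2 kept their sign under all 14 alternatives. Leaving out 1 library gave changes between -0.27 and -0.16 for Tbx5, between 0.13 and 0.20 for Tbx20 and between 0.18 and 0.27 for Mef2c. It moved other factors by more than 1.5 times. As examples, Gata6 was at -0.025 without P1 replicate 3, Gata4 at 0.0078 without P2 replicate 2 and 0.090 without P2 replicate 3, Mef2a at 0.026 without P1 replicate 1 and 0.082 without P1 replicate 3, and Nkx2-5 at 0.074 without P2 replicate 3. The difference of log2 ratios was then between 0.089 and 0.24 for Gata4 over Gata6 and between -0.25 and -0.10 for Mef2a over Mef2c. With equal sums, which lowered the median of all genes to -0.14, the sign turned for Gata4 (-0.13), Nkx2-5 (-0.055), Tbx20 (-0.0096), Mef2a (-0.12) and Meis1 (-0.16). Gata4 was also at -0.0030 after quantile normalization. Meis1 was at -0.010 with median ratio scaling, at -0.0068 after quantile normalization and between -0.012 and 0.024 with 1 library left out. Meis2 was then between -0.14 and 0.011, and the log2 ratio of Meis1 over Meis2 differed by between -0.013 and 0.15.

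Same-numbered libraries did not deviate together (correlations of -0.011, 0.101 and 0.0093 for replicates 1 to 3), so the replicate block pairs numbers only. It left the difference of log2 ratios as it was (-0.41 for Tbx5 over Tbx20), with an exact sign permutation p of 0.25, the smallest that 3 pairs allow. The depth behind the values is unknown, so their counting error could not be set beside the spread of 3 libraries per age.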

Other observations

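Some targets of the cardiac factors spread widely within P2, and those given here were chosen after their values were seen. Nppa, the atrial natriuretic peptide gene, had 177, 336 and 160 FPKM in P2 replicates 1 to 3, against 421, 286 and 281 FPKM in P1 replicates 1 to 3. Nppb, the B-type natriuretic peptide gene, had 88.2, 195 and 86.4 FPKM in P2, against 152, 115 and 124 FPKM in P1. Ankrd1, which encodes a titin-binding repressor induced by load, had 253, 404 and 268 FPKM in P2, against 294, 308 and 326 FPKM in P1. Myh7, the slow myosin heavy chain gene, had 353, 293 and 455 FPKM in P2, against 319, 473 and 361 FPKM in P1. P2 replicate 2 was the highest of the P2 libraries for Nppa, Nppb and Ankrd1 and the lowest of them for Myh7. Among the factors it was the highest for Gata4, Mef2a and Mef2c and the lowest for Hand2, Tbx20, Tbx5 and, by a small margin, Meis1. None of these genes passed limma's test over all genes (adjusted p = 0.353 for Nppa, 0.798 for Nppb, 0.936 for Ankrd1 and 0.882 for Myh7).

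Cdk4, a kinase gene of the cell cycle and a described target of Gata4, had 135, 137 and 143 FPKM in P2, against 155, 152 and 144 FPKM in P1 (log2 change -0.12 ± 0.04, limma adjusted p = 0.235). Ccnd2, its cyclin partner and also a described target of Gata4, had 43.3, 50.04 and 45.6 FPKM in P2, against 43.7, 43.7 and 48.5 FPKM in P1.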
